A study of Mus musculus and synthetic construct with 15 samples.

Results

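Nr2f2 encodes COUP-TFII, an orphan nuclear receptor that binds DNA and regulates transcription, and 2 of the 3820 genomic regions in a reporter assay of mouse heart had Nr2f2 as their nearest protein-coding gene. Members were the regions whose midpoint had the body of Nr2f2 as the nearest protein-coding gene body, at most 100 kb away, by RefSeq's annotation of GRCm38 (mm10). The rule itself uses positions and no measured values. In the assay, a massively parallel reporter assay, candidate sequences are carried as a pool by adeno-associated virus (AAV9), and the RNA made from each sequence in the tissue is set against its DNA in the pool. The study compared atrial RNA (5 libraries) and ventricular RNA (5 libraries) with each other and with the DNA of the AAV9 pool (5 libraries). All RNA came from wild-type mice that received the pool on postnatal day 0 and were harvested on postnatal day 7, and the labels give the cell type of both RNA groups as cardiomyocytes. The DNA libraries are of the pool itself and carry no genotype or age in the labels.

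In mice, COUP-TFII is known for its role in atrial cardiomyocytes, where it helps to set atrial rather than ventricular identity, and in the endothelium of veins, where it opposes arterial identity. Its family binds repeats of a hormone-response half-site and can pair with the retinoid X receptors. An enhancer is a stretch of DNA that raises transcription from a promoter, often at a distance. The reporter measures what a region does in a viral genome, outside its native surroundings, and the nearest gene need not be the gene that a region regulates.

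The first region, called the upstream region here, lies at chr7:70409905-70410304 (mm10), 43.4 kb before the start of Nr2f2. Nr2f2 itself spans chr7:70351946-70366746 on the minus strand. The upstream region lies inside the annotated span of the long noncoding RNA B130024G19Rik, 1042 bp from that gene's far end, and B130024G19Rik overlaps the first 1364 bp of Nr2f2. The second, the downstream region, lies at chr7:70267014-70267413 inside the annotated span of the long noncoding RNA Gm29683. Its midpoint is 84.7 kb past the end of Nr2f2 and 99.5 kb from its start. Both regions are 400 bp long, 142.9 kb apart, and share no sequence positions. Exons and introns of the noncoding RNAs were not told apart. The identifiers of both carry the tag GeneAVB, and the deposited group column places both in "MTF or P300", so these labels do not separate them. The next protein-coding gene, Gm44812, begins 99.1 kb from the upstream region, whose distance to Nr2f2 is less than that. No region beyond 100 kb had Nr2f2 as its nearest gene, so the downstream region was the member nearest to the distance limit and nothing lay just outside it.

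**Figure D1:**
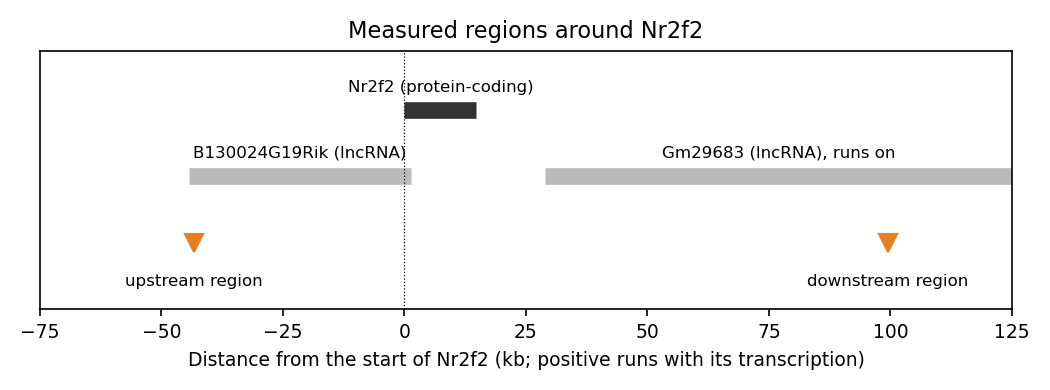
Positions of the 2 measured regions (triangles) relative to the start of Nr2f2, in kb along its direction of transcription, with annotated gene spans as bars (dark for protein-coding, light for long noncoding RNA). The upstream region sits 43.4 kb before the start, and the downstream region 99.5 kb after it.

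Depth was 1718563 to 2369985 counts per library in atrial replicates 2 to 5, 2862596 to 3781726 in ventricular replicates 2 to 5, 877773 and 1271527 in replicate 1 of atrium and of ventricle, and 2312820 to 2958271 in DNA. The replicate 1 RNA libraries stood apart: they had 700 to 765 regions at 0 counts, against 36 to 85 in the other RNA libraries and 657 to 731 in DNA. The main results of the Nr2f2 regions are therefore given with and without them. Both Nr2f2 regions had counts in all 15 libraries. Nothing in the labels says that replicates came from separate animals, so p-values measure the spread between these libraries, which may be technical. The counts hold reporter regions and no endogenous transcripts, so the labelled tissue could not be checked against its markers.

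The upstream region had more RNA than DNA in both chambers, and less in atrium than in ventricle. Its counts were 739, 1204, 1866, 1556 and 1206 in atrial replicates 1 to 5, 1961, 3389, 4310, 4520 and 3836 in ventricular replicates 1 to 5, and 1256, 1069, 892, 1011 and 979 in DNA replicates 1 to 5. As CPM, which are counts scaled to a common library size with TMM factors over the 15 libraries, the atrial libraries held 701.5, 666.1, 767.4, 690.8 and 678.8 CPM. The ventricular libraries held 1314.6, 1128.2, 1183.3, 1148.3 and 1206.1 CPM. The DNA libraries held 467.8, 486.1, 496.7, 440.8 and 432.3 CPM. No atrial library reached the lowest ventricular one, no DNA library reached the lowest atrial one, and the replicate 1 libraries did not break this order. The means were 700.9 ± 39.5 CPM in atrial RNA, 1196.1 ± 72.8 CPM in ventricular RNA and 464.8 ± 27.9 CPM in DNA (SD, n = 5 each).

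Between chambers, the log2 fold change of the upstream region, atrium over ventricle, was -0.78 ± 0.08 (SE), a level 1.71-fold lower in atrium (edgeR quasi-likelihood test, Benjamini-Hochberg adjusted p = 1.36e-06). It was thus the 1 of 2 Nr2f2 regions called between chambers at an adjusted p under 0.05, where 30.9% of the 2601 tested regions were called and 15.2% were called lower in atrium. Its atrial and ventricular libraries did not overlap, which was so in 22.7% of tested regions, and in 12.2% with atrium the lower. Same-numbered libraries differed by -0.91 in replicate 1 and by -0.76, -0.62, -0.73 and -0.83 in replicates 2 to 5 on the log2 CPM scale, so atrium was the lower in 5 of 5. With replicates 2 to 5 alone the fitted value was -0.73 ± 0.08 (edgeR adjusted p = 1.29e-05). The value is relative to the other regions of the pool, whose median was 0.02. In bulk RNA of this kind, fewer cells of a type and less RNA per cell of that type cannot be told apart.

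Against DNA, the upstream region was 1.44-fold higher in atrial RNA, a log2 fold change of 0.53 ± 0.08 (edgeR adjusted p = 2.89e-05), and 2.56-fold higher in ventricular RNA, a log2 fold change of 1.36 ± 0.07 (edgeR adjusted p = 5.82e-11). These comparisons share the DNA libraries, and values are relative to the bulk of the tested regions, whose median log2 was 0.04 in atrium and 0.06 in ventricle. Calls against DNA were common, with 38.4% of tested regions higher than DNA in atrium and 41.8% in ventricle, and so were RNA libraries that all lay above the DNA libraries, in 31.1% and 35.3%. The calls alone therefore do not set the region apart. By replicate, the log2 CPM of RNA lay 0.60 above the DNA mean in atrial replicate 1 and 0.52 to 0.72 above it over all 5 atrial libraries. In ventricle the value was 1.5 in replicate 1 and 1.28 to 1.38 in the others. With replicates 2 to 5 of both RNA and DNA, the fitted values were 0.58 ± 0.09 in atrium and 1.36 ± 0.08 in ventricle.

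**Figure D2:**
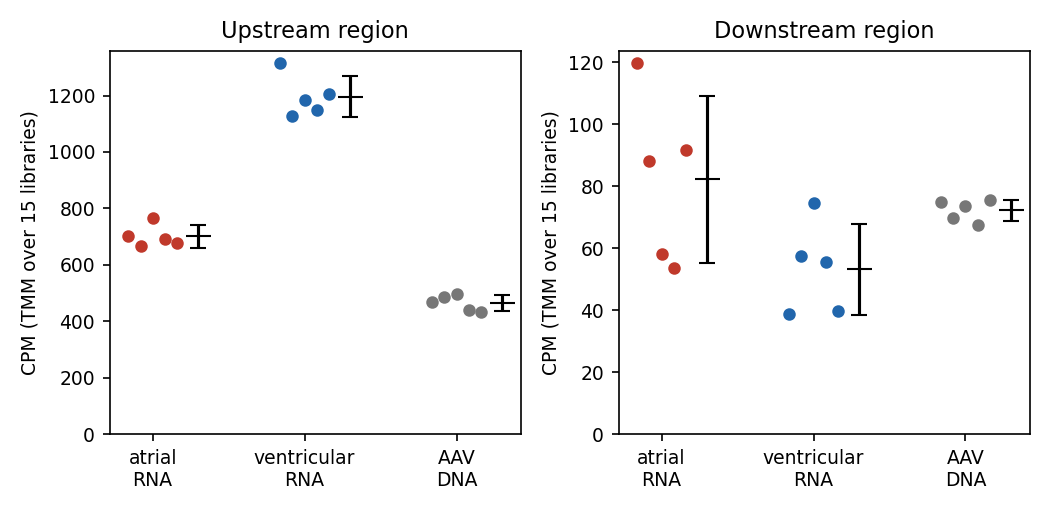
CPM of the 2 Nr2f2 regions in each library (points, in the order of replicates 1 to 5) for atrial RNA, ventricular RNA and AAV DNA, with the mean and SD beside them (n = 5). The 3 groups of the upstream region do not overlap, while those of the downstream region do.

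The downstream region had RNA libraries on both sides of its DNA level, and its RNA varied between libraries. Its counts were 126, 159, 141, 121 and 163 in atrial replicates 1 to 5, 58, 173, 271, 218 and 126 in ventricular replicates 1 to 5, and 201, 153, 132, 155 and 171 in DNA replicates 1 to 5. As CPM the atrial libraries held 119.6, 88.0, 58.0, 53.7 and 91.7, the ventricular libraries 38.9, 57.6, 74.4, 55.4 and 39.6, and the DNA libraries 74.9, 69.6, 73.5, 67.6 and 75.5. Atrial and ventricular values overlapped, and the highest atrial and the lowest ventricular value both came from replicate 1. On the log2 CPM scale, the atrial libraries lay 0.72, 0.28, -0.31, -0.42 and 0.34 from the DNA mean, and the ventricular libraries -0.88, -0.32, 0.04, -0.38 and -0.85, so 3 of 5 were above it in atrium and 4 of 5 below it in ventricle. The means were 82.2 ± 27.0 CPM in atrial RNA, 53.2 ± 14.7 CPM in ventricular RNA and 72.2 ± 3.46 CPM in DNA (SD, n = 5 each).

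The log2 fold change of the downstream region, atrium over ventricle, was 0.61 ± 0.27 (SE) and did not pass (edgeR adjusted p = 0.106). Same-numbered libraries differed by 1.60, 0.60, -0.36, -0.04 and 1.19 on the log2 CPM scale, with atrium the higher in 3 of 5. In replicates 2 to 5 alone the fitted value was 0.36 ± 0.28 (edgeR adjusted p = 0.375). With TMM factors taken from the regions that the group column calls Neg, a scaling that shifted the all-region median by 0.17, it was 0.78 ± 0.27 (edgeR adjusted p = 0.0376). Relative to the median of all tested regions it was 0.60 there and 0.59 in the reported fit.

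Against DNA, the downstream region had a log2 fold change of 0.12 ± 0.23 in atrium (edgeR adjusted p = 0.640) and of -0.45 ± 0.18 in ventricle (edgeR adjusted p = 0.0297). With factors from the Neg regions the atrial value was 0.55 ± 0.23 (edgeR adjusted p = 0.0395), 0.08 above the median of all tested regions there. The ventricular call, 1.36-fold lower than DNA, was 1 of the 39.5% of regions called lower than DNA there. It did not hold in replicates 2 to 5 alone, at -0.31 ± 0.19 (edgeR adjusted p = 0.154), nor without ventricular replicate 1 (adjusted p = 0.0549) or replicate 5 (adjusted p = 0.0670), nor without DNA replicate 1, 3 or 5 (adjusted p = 0.0599 to 0.0906). Scaled by library totals, without TMM factors, it was -0.17 ± 0.19, with factors from the Neg regions -0.28 ± 0.18, and when only the 1747 regions averaging 100 or more DNA counts were fitted it was 0.01 ± 0.18.

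Libraries of one group differed by more than counting error over all regions, with a lowest chi-square per degree of freedom between pairs of 17.7 in atrial RNA, 12.7 in ventricular RNA and 1.79 in DNA. The RNA of both Nr2f2 regions did so too. The downstream region's coefficient of variation over 5 libraries was 32.9% in atrial RNA, 27.6% in ventricular RNA and 4.80% in DNA, while counting error at its mean counts of 142.0, 169.2 and 162.4 would give 8.39%, 7.69% and 7.85%. The upstream region, at mean counts of 1314.2, 3603.2 and 1041.4, had coefficients of variation of 5.63%, 6.09% and 6.0% in the same groups, against 2.76%, 1.67% and 3.10% from counting error. Counting error here treats every count as an independent molecule, which the sources used here do not state. Between chambers, the SE of the upstream region was 0.08 and that of the downstream region 0.27, where the median SE of tested regions was 0.21.

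The ratio of the 2 regions within a library needs no scaling between libraries, and its values did not overlap between the chambers. On the log2 scale, with 2 counts added to each, upstream over downstream was 2.53, 2.91, 3.71, 3.66 and 2.87 in atrial replicates 1 to 5. It was 5.03, 4.28, 3.98, 4.36 and 4.91 in ventricular replicates 1 to 5, and 2.63, 2.79, 2.74, 2.69 and 2.5 in DNA. No atrial value reached the lowest ventricular value, while atrial and DNA values overlapped through atrial replicate 1. The mean was 3.14 ± 0.52 in atrial RNA and 4.51 ± 0.44 in ventricular RNA (SD, n = 5 each), a difference of -1.38 (exact permutation test, two-sided, p = 0.00794, the smallest that 5 against 5 can give). This amounts to 2.59-fold between the 2 regions in their chamber ratio. In replicates 2 to 5 the difference was -1.09 (exact permutation test, p = 0.0286, the smallest that 4 against 4 can give). That test treats libraries as independent, whereas same-numbered atrial and ventricular libraries deviated together over all regions. Paired by replicate number, the differences were -2.5, -1.37, -0.27, -0.70 and -2.03, lower in atrium in 5 of 5, and the call did not hold (exact sign-flip permutation test, two-sided, p = 0.0625). That is the smallest p that 5 pairs can give, so the paired design cannot pass at 0.05. The pairing was added after the data were seen. How many other pairs of tested regions separate in this way was not counted, so the separation is not shown to be particular to this pair. Single regions did not overlap between chambers in 22.7% of tested regions, the upstream region among them. Of the 2 regions' own log2 values between chambers, the upstream -0.78 was called and the downstream 0.61 was not.

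Against DNA, where the mean ratio was 2.67 ± 0.11, the ventricular ratio was 1.84 higher (exact permutation test, two-sided, p = 0.00794). The atrial ratio was 0.47 higher than in DNA and did not pass (exact permutation test, p = 0.0873). In replicates 2 to 5 of both it was 0.61 higher, with no overlap (exact permutation test, p = 0.0286). Adjusted over these 3 comparisons, the exact permutation p-values were 0.0119 for atrium over ventricle, 0.0873 for atrium over DNA and 0.0119 for ventricle over DNA. The 2 tests against DNA were added after the data were seen.

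**Figure D3:**
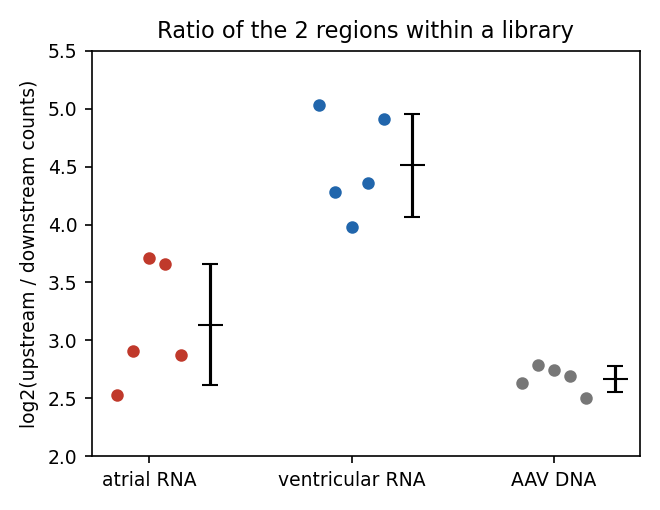
Log2 of upstream over downstream counts (2 counts added to each) in every library, with mean and SD beside the points (n = 5). Atrial values run from 2.53 to 3.71, ventricular values from 3.98 to 5.03 and DNA values from 2.5 to 2.79; the axis starts at 2.

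Against all 2601 tested regions, the upstream region stood towards the ventricular end. Its log2 atrium over ventricle of -0.78 was number 185 from the lowest, at a percentile of 7.07, and the downstream region's 0.61 was at a percentile of 84.7. Among the 1177 tested regions averaging 300 or more DNA counts, to which the upstream region belongs, the median was 0.11 and its percentile 3.91. Among the 446 tested regions that also carry GeneAVB alone and the group "MTF or P300", 103 were called higher and 58 lower in atrium, the median was 0.13, and the upstream region was number 23 from the lowest. The downstream region's percentile among these was 78.5. In replicates 2 to 5 alone, the upstream region's percentile was 8.19 over all tested regions, 3.74 at 300 or more DNA counts and 6.05 among the regions with both labels, while the downstream region's was 72.4 over all and 62.8 among those. These positions are descriptions and no tests.

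RNA over DNA was more moderate. The upstream region's percentile over all tested regions was 61.4 in atrium and 75.3 in ventricle. Regions abundant in the pool had lower RNA over DNA in general: at a mean DNA count of 300 or more the median log2 was -0.66 in atrium and -0.75 in ventricle, and there the upstream region's percentiles were 83.3 and 93.0. The DNA count that sets these ranges is also the denominator of RNA over DNA, so the 2 are not independent. The downstream region, among the 570 tested regions averaging 100 to under 300 DNA counts, was at percentiles of 46.5 in atrium and 30.0 in ventricle. The upstream region's pattern, called higher than DNA in both chambers and lower in atrium than in ventricle, was shared by 234 tested regions (9.0%), and the same pattern with atrium the higher was found in 115 (4.42%). In replicates 2 to 5 alone these counts were 206 (7.92%, the upstream region among them) and 116 (4.46%). In level, the upstream region held rank 249 of the 2601 tested regions in atrial RNA, rank 113 in ventricular RNA and rank 471 in DNA. The downstream region held ranks 1680, 1932 and 1508 in the same order.

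**Figure D4:**
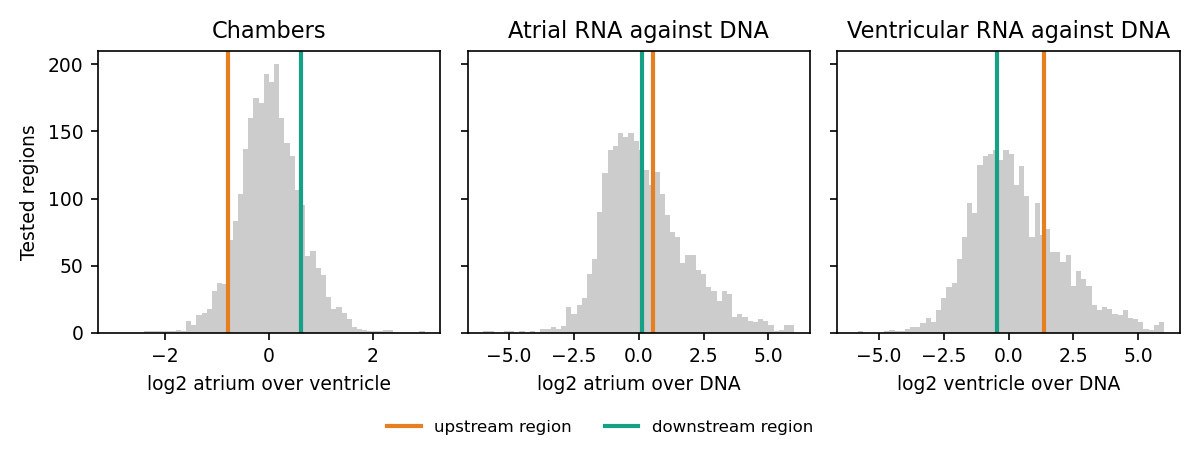
Histograms of the log2 fold changes of the 2601 tested regions (values beyond the axis are in the end bins), with the upstream and downstream regions of Nr2f2 as vertical lines. Between chambers the lines stand at -0.78 and 0.61, for atrial RNA against DNA at 0.53 and 0.12, and for ventricular RNA against DNA at 1.36 and -0.45.

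The regions with the pattern most like that of the upstream region were ranked by the root mean squared difference of log2 RNA over mean DNA across the 10 RNA libraries. Candidates were tested regions with a gene within 100 kb and no ESC-Neg tag. The 5 nearest of 1886 candidates differed by 0.15 to 0.17, where the median candidate differed by 1.53. They lay 58404 bp from Zfp536, a zinc finger protein gene (chr7:37832244-37832643), and inside Trabd2b, which encodes a metalloprotease that acts on Wnt proteins (chr4:114500960-114501359), Gm2115 (chr7:84566249-84566648), Mical2, which encodes an enzyme that oxidises actin (chr7:112276742-112277141), and Fras1, which encodes an extracellular matrix protein (chr5:96454399-96454798). Their log2 atrium over ventricle ran from -0.95 ± 0.09 at Zfp536 to -0.61 ± 0.11 at Fras1, and their ventricular RNA over DNA from 1.23 ± 0.08 at Fras1 to 1.53 ± 0.08 at Mical2. These 5 regions were chosen by the same values, so their likeness to the upstream region follows from the choice and is a description. The downstream region differed from the upstream one by 1.41, against 1.53 for the median candidate. Over the 8 RNA libraries of replicates 2 to 5, 4 of these 5 regions were still among the 5 nearest, and the one at Gm2115 was at rank 6.

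Regions near other nuclear receptor genes were few. Of 25 listed genes, 7 had a region and 5 a tested one, with 6 tested regions in all. Between chambers 1 of these was called higher in atrium and 3 lower, against 15.8% and 15.2% of all tested regions, and their median log2 was -0.19, against 0.02 over all. The largest difference was 1202 bp from Rara, a retinoic acid receptor (chr11:98926399-98926798), at 523.3 ± 78.6 CPM in atrium and 1392.6 ± 65.1 CPM in ventricle (SD, n = 5 each), a log2 fold change of -1.42 ± 0.10. Regions inside Nr4a1, an immediate early receptor (-0.45 ± 0.11), and Rarg, another retinoic acid receptor (-0.41 ± 0.13), were also lower in atrium, and one inside Ppard, a receptor that regulates fatty acid oxidation (0.34 ± 0.08), was higher. The other tested region of Nr4a1 had 0.03 (edgeR adjusted p = 0.937). The Rara and Ppard regions and this other Nr4a1 region carry the tag ESC-Neg. In replicates 2 to 5 alone 1 region was again higher and 3 lower, with the Rara region at -1.32 ± 0.10, and with TMM factors from the Neg regions 1 was higher and 1 was lower. The sole tested region of Rxra, a retinoid X receptor and thus a partner of the COUP-TF family, had a value of 0.17 and did not pass.

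Loci of genes that mark the chambers set the upstream region in context. Among 26 tested regions of 10 genes of atrial identity, 10 were higher in atrium, 0 were lower and 16 did not pass by edgeR, with a median log2 atrium over ventricle of 0.53. Over all tested regions 15.8% were higher, 15.2% lower and the median was 0.02. At an unadjusted p under 0.05 these counts were 13 higher and 2 lower, and DESeq2 called 13 and 0. Replicates 2 to 5 alone gave 10 and 0. The 4 regions of this list with the smallest adjusted p were all higher in atrium. They were a region 21906 bp from Kcnj5, a subunit of the atrial acetylcholine-gated potassium channel (1.24 ± 0.11), and one 6383 bp from Stard10, a lipid transfer protein (1.06 ± 0.13). The others were one region 2075 bp from Tbx5 (1.88 ± 0.18) and one 7404 bp from Myl7 (2.39 ± 0.20). Among 28 tested regions of 10 genes of ventricular identity, 3 were higher in atrium, 8 were lower and 17 did not pass, with a median of -0.06. The counts were 2 higher and 7 lower in replicates 2 to 5 alone, and 5 higher and 6 lower with factors from the Neg regions. Regions 7923 bp and 20772 bp from Irx4, a ventricular transcription factor, had -1.33 ± 0.12 and -1.01 ± 0.10, and one near Myh7, the slow myosin heavy chain, -1.51 ± 0.12. Beside GeneAVB, the identifier of the Myh7 region carries the tag aMTF+p300, and that of the Irx4 region at 7923 bp carries vMTF+p300. One near Nppb, a natriuretic peptide gene, was higher in atrium at 0.89 ± 0.08. The upstream region of Nr2f2, at -0.78 ± 0.08, was called in the direction of those Irx4 and Myh7 regions and opposite to the Nppb region. The median of the ventricular list, -0.06, lay near that of all tested regions, 0.02, and 17 of its 28 regions did not pass. Its calls were 8 lower and 3 higher in atrium, against 15.2% lower and 15.8% higher over all tested regions. Of 4 tested regions near genes of vein and artery identity, 1 near Nrp2 (0.34 ± 0.11) was higher in atrium and 1 near Notch1 (-0.66 ± 0.20), tagged ESC-Neg, lower. Neither was called in replicates 2 to 5 alone. The other 2 lie inside Nrp2, are tagged ESC_Neg, and did not pass, at -0.66 ± 0.32 and 0.03 ± 0.33.

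The nearest other measured region lay 422.3 kb from the start of Nr2f2, on its upstream side, and carries the tag ESC_Neg. It held 24.1 ± 16.6 CPM in atrial RNA, 21.5 ± 4.95 CPM in ventricular RNA and 28.6 ± 3.53 CPM in DNA (SD, n = 5 each). Its log2 atrium over ventricle was 0.13 (edgeR adjusted p = 0.865), and neither RNA over DNA value, -0.35 in atrium and -0.42 in ventricle, passed (edgeR adjusted p = 0.470 and 0.0846). On the downstream side, a tested region 1888.4 kb from the start of Nr2f2 lay nearest to another gene, Fam169b. Its log2 atrium over ventricle was -1.56 (edgeR adjusted p = 3.94e-07). Its RNA over DNA was 1.13 in atrium and 2.74 in ventricle (edgeR adjusted p = 7.1e-05 and 5.47e-11).

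Across the other settings, the upstream region kept its direction and its call in all 3 comparisons. Its log2 atrium over ventricle ran from -0.81 to -0.61 over 17 alternatives, its atrial RNA over DNA from 0.39 to 0.96 over 18 and its ventricular RNA over DNA from 1.18 to 1.81 over 18. The values against DNA moved with the scaling and the filter. Library totals and factors from the Neg regions shifted the median of all regions in atrium by 0.33 and 0.43. Such scalings move all regions nearly alike, so a region's distance from that median could hardly change and is no check. Relative to that median the upstream region was at 0.49 under both. In ventricle it was 1.30 and 1.29 above the median. Fitted over the 1747 regions with higher DNA counts alone, it lay 0.92 above their median in atrium and 1.80 above it in ventricle.

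**Figure D5:**
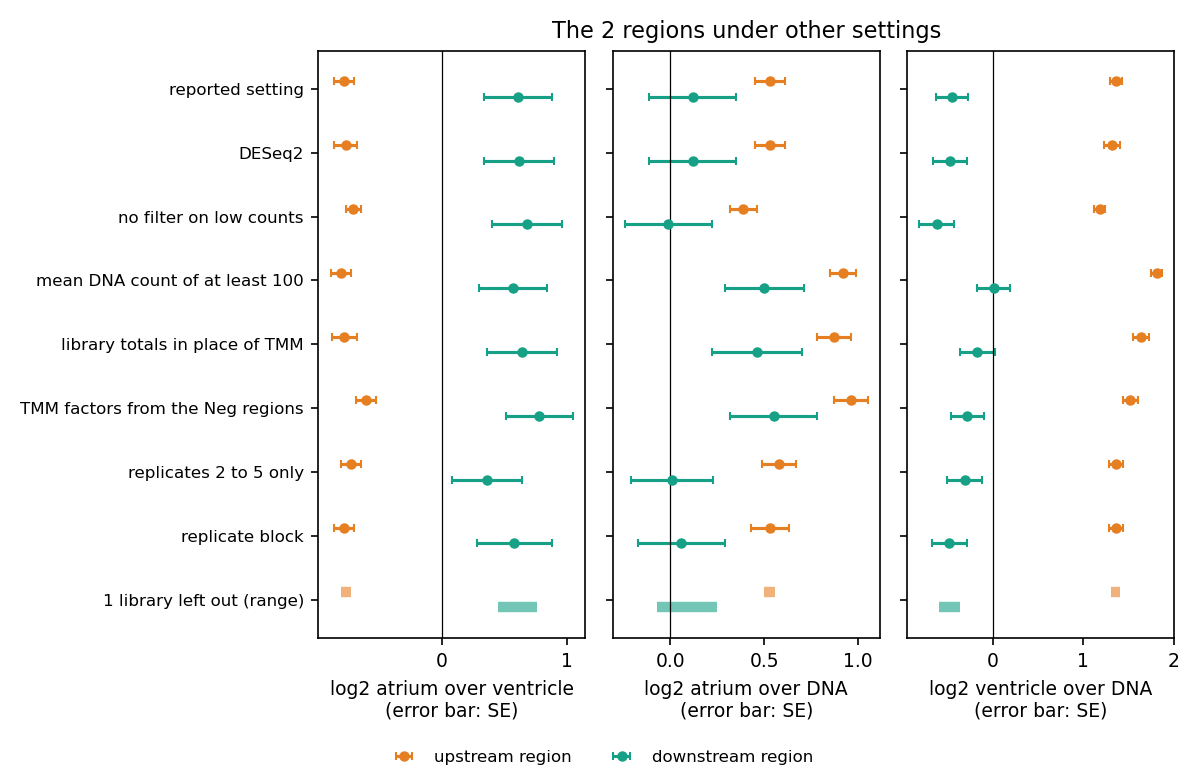
Log2 fold changes of the 2 Nr2f2 regions under the reported setting and its alternatives (points with SE), and the range when 1 library is left out (bars at the bottom). The upstream region stays between -0.81 and -0.61 between chambers, while the downstream region's RNA over DNA lies on either side of 0 depending on the setting.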

How the data were processed

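RNA of atria and ventricles and DNA of the AAV9 pool were measured in 5 libraries each. Per the labels' protocols, RNA and released AAV genomes were copied with a primer that carries a molecular identifier (UMI) and amplified with adapters. Per the submitters' processing notes, cutadapt 2.5, Bowtie2 2.3.4.3 and mm10 were used. The files deposited by the authors hold raw counts per region as whole numbers. The sources used here do not say whether these are reads or collapsed UMIs, so intervals from counts cover counting error only. The series table and the sample files differed in 0 values.

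Groups and replicate numbers came from the labels. Regions were assigned to the nearest protein-coding gene body within 100 kb in RefSeq. Sequences of the regions were not used here. Each comparison was fitted on its 2 groups with edgeR 4.0.16 (robust quasi-likelihood, TMM) in R 4.3.3, over the 2601 regions averaging 10 or more DNA counts, with Benjamini-Hochberg adjustment over them and calls at 0.05. SE came from the log2 fold change and F. Alternatives used DESeq2 1.42.0, other filters and scalings, a replicate block and fewer libraries. CPM used TMM factors over all 15 libraries.

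No replicate pair agreed within sampling noise (lowest chi-square per degree of freedom 1.79). Deviations from group means correlated at 0.225 to 0.819 between atrial and ventricular libraries of one number, above the criterion of 0.1 for pairs, and those with DNA at -0.0317 to 0.0604. Members, gene lists and the naming rule were chosen with earlier results of these data known. All members were named, with the 5 regions most like the upstream one and up to 4 tested regions per list with the smallest adjusted p between chambers, of which some are given in counts only.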

Additional observations from a re-analysis of the deposited data

Results flagged for a closer look

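The RNA of the upstream region differed between the chambers: its log2 atrium over ventricle was -0.78 ± 0.08 (SE; edgeR adjusted p = 1.36e-06), with atrium the lower in 5 of 5 same-numbered pairs. Of the 6 groups of 5 libraries examined for a single library far from the others (Dixon's gap over range, cutoff 0.71), 0 had one. With 5 libraries this cutoff flags only a strongly isolated library, so the result does not show that no library deviates.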

How the results depend on the processing

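The upstream region kept its direction and call under every alternative run. The number of Nr2f2 regions called changed through the downstream region. With TMM factors from the Neg regions it was 2 between chambers (1 higher and 1 lower in atrium) and 2 for atrium over DNA, against 1 and 1. For ventricle over DNA it was 2 as reported and 1 over regions averaging 100 or more DNA counts, with library totals, with factors from the Neg regions, in replicates 2 to 5 alone, with RNA replicates 2 to 5 against all DNA (added after seeing the data) and at a distance limit of 50 kb, which leaves 1 member; leaving out 1 library gave 1 to 2. The downstream region's atrial RNA over DNA, 0.12, became -0.01 with no filter and -0.07 with atrial replicates 2 to 5 against all DNA, with a range of -0.07 to 0.25 when 1 library was left out, and its ventricular value, -0.45, became 0.01 over regions averaging 100 or more DNA counts. The ratio of the regions, atrium over DNA, was 0.61 higher in replicates 2 to 5 (exact permutation p = 0.0286), the smallest p that 4 against 4 can give. The cause of these changes was not tested.

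Regions called for atrium over DNA were 1944 (999 higher), 2952 with no filter (1930 higher), where 3811 were tested, and 1280 where 1747 were tested. Library totals gave 1189 higher and 676 lower for that comparison, and factors from the Neg regions 1283 and 621. For ventricle over DNA, 3171 were called with no filter (2051 higher) against 2114 (1086 higher). Between chambers, factors from the Neg regions gave 577 higher and 232 lower in atrium, against 410 and 395. The replicate block gave the upstream region -0.78 and the downstream region 0.58 between chambers, and changed no call of either in any comparison. Paired by replicate number, the ratio of the regions, atrium over ventricle, stayed at -1.38 and lost its call (exact sign-flip permutation p = 0.0625, the smallest that 5 pairs can give). For the downstream region, counting error of 7.69% to 8.39% was below the spread between RNA libraries, 32.9% in atrium and 27.6% in ventricle. That counting error treats every count as an independent molecule and uses mean counts. What sets the spread was not tested.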
